A study of Mus musculus with 10 samples.

Results

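Lcn2, the mouse gene for lipocalin 2 (also called NGAL), was followed through 10 single-cell libraries of mouse kidney cortex. It is 1 gene of the 28808 gene symbols that the tables hold between them, and its row was present in all 10. It was taken by its symbol, with earlier results of these data known. The mice were aged 4 weeks, and the kidneys were either normal (1 control library) or injured. Injured kidneys gave 1 library each on days 1, 2 and 4 and 2 libraries each on days 7, 11 and 14. The labels give no kind of injury, treatment, strain, genotype or sex, and do not say whether the libraries of a day came from different animals. Per the series title, the study asked about transcription after acute kidney injury, including the return of developmental programmes and the mixing of cell identities.

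Lipocalin 2 is a small secreted carrier protein that binds bacterial siderophores, the iron chelators of bacteria, and so keeps iron from them. It was first known from the granules of neutrophils and is also made by epithelia under inflammatory signals, where NF-kappaB, its co-factor encoded by Nfkbiz, C/EBP factors and STAT3 act on the gene. In urine and plasma it serves as a marker of acute kidney injury. In the kidney, filtered lipocalin 2 is taken up in the proximal tubule by megalin (Lrp2), while the thick ascending limb and the collecting duct are known as sites of its synthesis after injury.

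The gene (gene ID 16819) lies on the minus strand of chromosome 2, from 32384633 to 32388252 in GENCODE release M21 (3620 bases), and from 32384637 to 32387739 in RefSeq, both on the mm10 build (GRCm38). GENCODE lists 2 coding transcripts, with 7 exons in the one that has most. It lists 0 genes that overlap Lcn2, so reads of an overlapping gene on either strand do not enter its count. The promoter stretch is shown because members of the signalling pathways that act on it were measured in the same barcodes. It is the RefSeq window from 250 bases before to 50 after the gene's start, shortened to leave out untranslated sequence, and it covers 192 bases at chr2:32387798-32387989 of GRCm38.p6, minus strand, written 5′ to 3′. Part of it is a coding exon of another annotated Lcn2 transcript. Capitals mark the matches of 3 motifs that were searched on both strands.

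Lcn2 promoter: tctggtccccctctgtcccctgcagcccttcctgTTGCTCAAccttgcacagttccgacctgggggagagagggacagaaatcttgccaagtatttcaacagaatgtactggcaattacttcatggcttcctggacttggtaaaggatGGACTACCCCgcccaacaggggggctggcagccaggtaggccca

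The first run in capitals, starting at -216 from the RefSeq start, matched the C/EBP motif TTGCNNAA. The second, starting at -102, matched the NF-kappaB motif on the opposite strand. The STAT motif TTCNNNGAA had no match in the whole window. Of the 32851 promoter windows of the table, 10.8% held the C/EBP motif, 16.0% the NF-kappaB motif and 8.30% the STAT motif. The matches overlapped neither each other nor another motif searched, and each describes letters in this window only.

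The 10 tables held 64803 barcodes and 7091848 to 31632205 UMIs (unique molecular identifiers, each a captured RNA molecule) per library. A barcode was used if it had 500 or more UMIs from 500 or more genes, no more than 50% of them mitochondrial, which left 52797, from 3568 to 6941 per library. The deposited day 11 tables went down to 300 genes per barcode, and those of the other libraries to 500. Hence 5362 and 5424 barcodes of the day 11 libraries had too few genes, against 0 in the others. Median depth ran from 1244 UMIs per barcode on day 7 (replicate 1) to 2661.5 in the control, and no pair of libraries shared more than 11 barcode sequences. Each barcode was put in the class with most of its fixed markers detected (at least 2). These gates are called by the class name. Detection of the fixed markers in their gates varied, and the shares here are medians over the libraries. In the principal cell gate Hsd11b2 was detected in 98.2% and Aqp2 in 90.9% of barcodes, but Avpr2 in 52.0%. The lowest share of Aqp2 in a library was 60.9%. In the thick ascending limb gate Umod was detected in 99.0% and Slc12a1 in 98.2%, but Tmem207 in 20.2%. In the proximal tubule gate Acsm2 was detected in 95.5%, but Cubn in 13.3% and Slc22a7 in 2.96%. In the distal convoluted tubule gate Slc12a3 was detected in 90.2% but Trpm6 in 23.3%, and Pvalb ranged down to 4.23%.

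Lcn2 went from scarce to abundant within the first day after injury, stayed abundant through day 7 and was nearly gone by day 14. The deposited tables held 56953 Lcn2 UMIs in 8563 barcodes. Over all barcodes of a library, Lcn2 took 2.78 UMIs of every 1000000 (CPM) in the control, and 1273, 390.1 and 698 CPM on days 1, 2 and 4. The replicates of day 7 had 1039 and 936 CPM, those of day 11 had 27.2 and 19.3, and those of day 14 had 9.76 and 7.52. Every injured library lay above the control, and the 3 replicated days did not overlap one another. Behind these levels stood 88 Lcn2 UMIs in the control, 6376 to 15417 on days 1 to 7, 409 and 271 on day 11 and 218 and 150 on day 14.

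The principal cells of the collecting duct, which carry out regulated water and sodium uptake, held the largest part of the transcript. In their gate Lcn2 stood at 19.4 CPM in the control and at 3234, 1362 and 2708 CPM on days 1, 2 and 4. It stood at 1973 and 2690 CPM on day 7, 312 and 229 on day 11, then 109 and 77.1 on day 14. The share of principal barcodes with at least 1 Lcn2 UMI was 8.16% in the control (exact 95% interval 5.30 to 11.9) and 81.2% on day 1 (77.3 to 84.8). It was then 53.6% on day 2, 68.1% on day 4, 68.6% and 67.5% on day 7, 25.9% and 20.96% on day 11, then 10.9% and 11.4% on day 14. The control and day 14 intervals overlapped for this share. Intervals here cover counting error only.

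The thick ascending limb, the salt-reabsorbing segment that also makes uromodulin, was high over the same days. Its gate had 4.67 CPM in the control, 1973, 1365 and 1949.5 on days 1, 2 and 4, 1496 and 1789 on day 7, 83.8 and 61.7 on day 11, then 18.4 and 27.9 on day 14. On day 2 the 2 segments had nearly the same level, and on days 11 and 14 the principal cells were higher in every library. Of its barcodes, 1.48% carried Lcn2 in the control, 89.1% on day 1, 75.8% on day 2, 73.8% on day 4 and 69.1% and 72.7% on day 7.

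In the distal convoluted tubule, the segment of the thiazide-sensitive sodium chloride transporter, the control had 0 Lcn2 UMIs in 333 barcodes, which allows up to 1.37 CPM and a Lcn2 UMI in up to 0.901% of barcodes. This limits barcodes with a UMI, not cells that express the gene. Its levels were 2924 CPM, 1137 and 3995 on days 1, 2 and 4, 3352 and 2653 on day 7, 41.2 and 3.76 on day 11, then 0.792 and 1.27 on day 14. Against 3 counts in the control, this was at least 829-fold higher on day 2 and at least 2913-fold higher on day 4, the lowest and highest of the 5 libraries of days 1 to 7. The last 3 levels rest on 1 UMI each. Days 4 and 7 thus had higher levels here than in the principal cells in 2 of 3 libraries, while on days 11 and 14 the principal cells were higher in all 4. Of its barcodes, 80.2%, 69.8% and 52.7% carried Lcn2 on days 1, 2 and 4, and 76.1% and 46.7% on day 7. This share was below that of principal cells on day 4 (68.1%) and day 7 replicate 2 (67.5%), and above it in replicate 1 (68.6%). On day 4, 1 barcode held 423 of the 2449 Lcn2 UMIs.

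Intercalated cells, the acid-base handling cells of the collecting duct, were lower than the other distal segments in every library of days 1 to 7. Their gate held 37 to 86 barcodes per injured library. It had 6.51 CPM in the control, 529, 274 and 265 on days 1, 2 and 4, 884 and 242 on day 7, 42.0 and 12.3 on day 11, then 0 and 5.001 on day 14. The day 14 values rest on 0 and 1 UMI, and 0 in 86 barcodes allows a UMI in up to 3.49% of barcodes, which again does not limit the cells that express the gene.

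**Figure D1:**
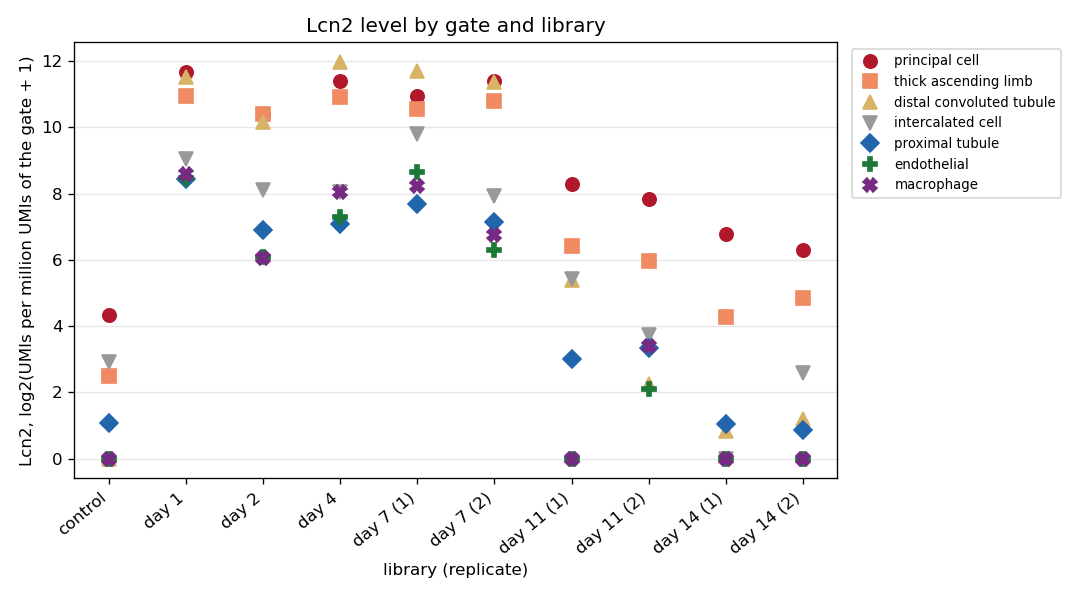
The vertical axis is log2 of Lcn2 CPM in the gate plus 1, the horizontal axis lists the 10 libraries with the replicate in brackets, and each point is 1 gate in 1 library. The principal cell, thick ascending limb and distal convoluted tubule points of days 1 to 7 lie together at the top (1137 to 3995 CPM), and the proximal tubule (119.6 to 346 CPM), endothelial and macrophage points lie lower.

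The proximal tubule, the bulk of the cortex and the segment that reabsorbs filtered proteins, had far less. Its gate had 1.12 CPM in the control, 346, 119.6 and 134 on days 1, 2 and 4, 206 and 141 on day 7, 6.97 and 9.17 on day 11, then 1.08 and 0.803 on day 14. Positive barcodes made up 0.176% in the control, 48.3%, 18.8% and 24.9% on days 1, 2 and 4, 29.6% and 22.2% on day 7, 0.569% and 0.720% on day 11, then 0.300% and 0.209% on day 14. Among positive proximal barcodes the median was 1 UMI in every library, whereas it was 3 to 5 UMIs in the distal nephron on days 1 to 7 (the thick ascending limb, distal convoluted tubule, principal and intercalated gates together).

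The endothelial gate, of cells outside the epithelium, was taken as a reference, since RNA free in a suspension gives UMIs in barcodes of every cell type. Whether its Lcn2 was free RNA or made in these cells was not tested. The endothelial gate had 0 UMIs in 321 control barcodes, then 352 CPM on day 1, 66.8 on day 2, 156 on day 4 and 399.8 and 77.9 on day 7. Of endothelial barcodes, 42.9%, 12.3%, 18.8%, 30.7% and 11.2% were positive in these 5 libraries, at median depths of 951.5 to 1570.5 UMIs over the injured libraries against 1380 to 2431 in the proximal gate. On days 11 and 14, 1 of these 4 endothelial sums held Lcn2, with 1 UMI. T or NK cell barcodes were positive in 48.4% on day 1 and in 34.1% and 12.2% on day 7. Other gates outside the tubule differed in level from the endothelial gate. On day 1 the mesenchymal gate had 334 CPM, macrophages 384, T or NK cells 478, podocytes 629 and monocytes 720. On day 7 podocytes had 673 and 28.6 CPM and monocytes 724 and 111. The exact 95% intervals of the proximal and endothelial shares overlapped in 3 of the 5 libraries of days 1 to 7. The proximal share was higher without overlap on day 2 (17.3 to 20.4 against 9.07 to 16.1) and on day 7 in replicate 2 (19.4 to 25.1 against 8.03 to 15.0).

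Depth differs between gates, so each barcode was also thinned to 1000 UMIs, leaving out shallower ones. In the control 230 of 5366 tubular barcodes were left out, and 342 to 971 per library on days 1 to 7. At this depth 71.8% of principal barcodes were positive on day 1, 40.2% on day 2, 54.6% on day 4 and 63.5% and 54.2% on day 7. The proximal shares were 28.1%, 10.1%, 12.3%, 18.1% and 10.4% in the same libraries, and the endothelial shares 29.7%, 7.04%, 14.9%, 30.8% and 7.26%. In 3 of the 5 libraries the endothelial share was the higher of the pair. In these libraries (day 1, day 4 and day 7 replicate 1) thinning left out 90 of 273, 82 of 154 and 91 of 166 endothelial barcodes. It left out 266 of 1289, 740 of 3694 and 152 of 609 proximal barcodes there. Principal barcodes were positive in 2.64% of the control at this depth, and in 5.13% and 5.65% on day 14.

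**Figure D2:**
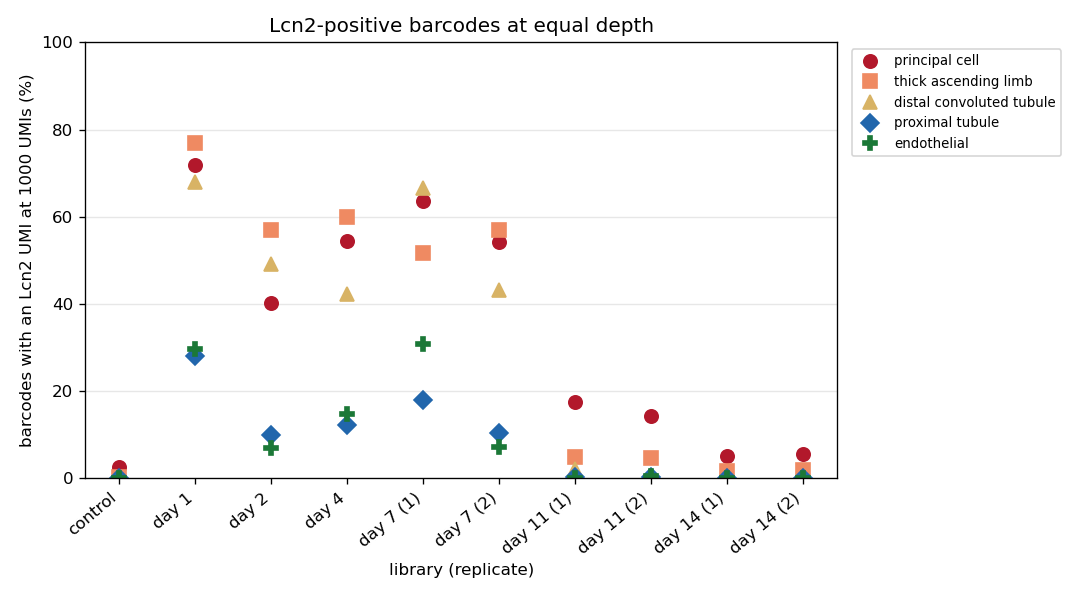
The vertical axis is the percentage of barcodes expected to carry an Lcn2 UMI once each is thinned to 1000 UMIs, and each point is 1 gate in 1 of the 10 libraries on the horizontal axis. The 3 distal segments lie well above the proximal and endothelial points on days 1 to 7, where the proximal points run from 10.1% to 28.1% and the endothelial points from 7.04% to 30.8%, the endothelial point being the higher in 3 of 5 libraries (30.8% against 18.1% on day 7, replicate 1).

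Each gate was set against the endothelial gate of the same library, as the difference in log2(CPM + 1) over the 9 injured libraries. The principal cell gate was higher in 9 of 9 by a mean of 5.12 (SD 1.87), the thick ascending limb in 9 of 9 by 4.03 (SD 1.31) and the distal convoluted tubule in 9 of 9 by 3.05 (SD 1.94). Each had an adjusted p of 0.00911 in a two-sided exact sign-flip permutation test, adjusted by Benjamini-Hochberg over 7 gates. The unadjusted p of 0.00391 is the smallest that 9 libraries can give, and it needs the same sign in all 9. On days 11 and 14 the endothelial sums held 0 or 1 Lcn2 UMI. The distal convoluted tubule held 1 UMI on day 11 (replicate 2) and in each day 14 library. Its signs in these libraries rest on those single UMIs, and its p depends on them. The intercalated gate held 9 and 2 UMIs on day 11, then 0 and 1 on day 14. The intercalated gate was higher in 8 of 9 (mean 1.75, SD 1.58, adjusted p = 0.0137 in the same exact test), and the tubular gate without a segment in 6 of the 6 libraries with enough barcodes (mean 2.82, SD 1.11, adjusted p = 0.0438). The proximal gate was higher in 6 of 9 (mean 0.74, SD 1.11) and did not pass (adjusted p = 0.100 in the exact test). It was higher in every library of days 11 and 14, but of days 1 to 7 only on day 2 and on day 7 (replicate 2). On day 14 the endothelial counts of 0 allow up to 9.50 and 11.9 CPM, above the proximal 1.08 and 0.803. The 1 endothelial UMI on day 11 (replicate 2) allows up to 18.5 CPM, above the proximal 9.17. The proximal signs in these libraries are thus not settled. On day 11 (replicate 1) the endothelial count of 0 allows up to 6.44 CPM, beside 6.97 in the proximal gate. The macrophage gate was higher in 4 of 9 (mean 0.24, SD 0.51, adjusted p = 0.188 in the exact test). With barcodes left out that carried at least 2 markers of another class, the proximal difference was 0.0015 (higher in 5 of 9, adjusted p = 1 in the exact test) and the macrophage difference turned to -1.18 (higher in 1 of 7, adjusted p = 0.263 in the exact test). In the same setting the distal convoluted tubule (2.22, higher in 6 of 9, adjusted p = 0.109) no longer passed in the exact test. Its values then ran from -3.42 to 6.66 over the libraries, against 0.139 to 5.40 with these barcodes kept, so both ends moved outward. The intercalated difference turned to -0.51 (higher in 1 of 7, adjusted p = 0.583 in the exact test). Days 2 and 4 had too few intercalated barcodes for it, and its values ran from -3.42 to 0.81. The segment-free gate was higher in 6 of 6 in both settings (2.61 here), with an unadjusted p of 0.0313, the smallest that 6 libraries can give in the exact test. Its adjusted p became 0.0729 through the p-values of the other gates in the exact test.

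Within a library the distal nephron exceeded the proximal tubule in all cases. The distal nephron had 6.17 CPM in the control, 2530.1, 1246 and 2539 on days 1, 2 and 4, 1919.8 and 2273 on day 7, 124 and 91.6 on day 11, then 39.9 and 37.4 on day 14. The ratio of distal to proximal level was 5.50 in the control, 7.31, 10.4 and 18.9 on days 1, 2 and 4, 9.33 and 16.1 on day 7, 17.8 and 9.99 on day 11, then 36.9 and 46.5 on day 14. The control ratio rests on 1 proximal barcode, described with the proximal tests, that held 14 of the 20 proximal UMIs. Without it the control ratio was 18.3, above those of days 1, 2 and 7 and below that of day 4. Over the injured libraries the difference in log2(CPM + 1) was 3.73 (SD 0.57), higher in 9 of 9, with p = 0.00391 in a two-sided exact sign-flip permutation test, the smallest it can give. Within day 7 the distal nephron exceeded the proximal tubule by 3.55 on the log2 scale (SE 0.16). The adjusted p was 8.26e-13 by the edgeR quasi-likelihood test, Benjamini-Hochberg adjusted over all genes, in a comparison that called 37.6% of the genes tested. It was fitted in a model of all 10 libraries, so its spread was not that of the 2 day 7 libraries alone. This comparison was not planned.

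The distal nephron made up 11.5% to 28.1% of the used barcodes of a library but held most of its Lcn2. Its part of the library's Lcn2 UMIs was 66.7% in the control, 69.4%, 61.7% and 72.8% on days 1, 2 and 4, 62.2% and 81.6% on day 7, 82.4% and 52.6% on day 11, then 71.6% and 80.7% on day 14. The proximal tubule held 23.0% in the control and 3.66% to 29.1% in the injured libraries. Barcodes that no gate took held 3.95% to 20.2% over the injured libraries.

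**Figure D3:**
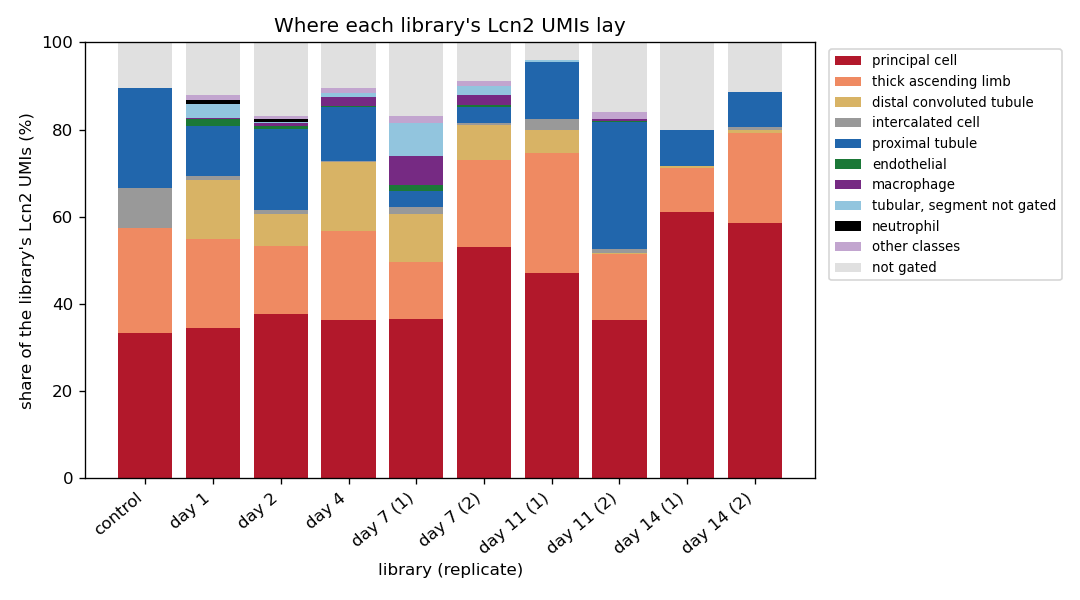
Each bar is 1 library, and its coloured segments are the percentages of that library's Lcn2 UMIs that lay in each gate, adding to 100. Principal cells held 34.5% to 61.0% in the injured libraries and are the largest segment of each of those bars, and neutrophils held at most 0.898%.

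Barcodes rich in Lcn2 were mostly distal. In the injured libraries 1121 barcodes held at least 10 Lcn2 UMIs, and 876 of them (78.1%) were in the distal nephron gates: 498 principal, 245 thick ascending limb, 123 distal convoluted tubule and 10 intercalated. The proximal gate held 70 (6.24%), and 113 were not gated. The macrophage gate held 13, the neutrophil gate 2 and the endothelial gate 1. The most Lcn2 UMIs in 1 barcode were 776, on day 7 (replicate 2), against 14 in the control. Proximal barcodes with at least 10 Lcn2 UMIs also carried other segments' markers: 56 of the 70 (80.0%) had at least 2 markers of a distal class, at a median depth of 8885.5 UMIs. For the barcodes with fewer, libraries were kept apart, since most positive ones came from days 1 to 7. Of proximal barcodes with 1 to 9 Lcn2 UMIs, 43.7% had 2 such markers on day 1 against 27.0% of those with none, at median depths of 1494 and 1695 UMIs. The shares were 55.3% against 36.3% on day 2 (1312 and 1837 UMIs) and 43.4% against 30.1% on day 4 (2009 and 1960.5). On day 7 they were 33.5% against 22.8% (1799 and 1486) and 31.1% against 19.1% (3602 and 2194), so the share was higher with Lcn2 in 5 of 5 libraries while the depth was higher in 3 of 5. The part of depth and of mixed barcodes in this was not tested.

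The immune gates held little of the Lcn2 counted. The macrophage gate, which held 993 and 1478 barcodes on day 7, had 0 CPM in the control, 384, 65.7 and 266 on days 1, 2 and 4, 301 and 106 on day 7, 0 and 9.66 on day 11, then 0 and 0 on day 14. It held at most 6.61% of a library's Lcn2. Neutrophils, the cells in which the protein was first found, were rare among the used barcodes: their gate held 54 barcodes on day 1, 52 on day 2, 4 on day 4, 8 and 4 on day 7 and 0 in the other libraries. On day 1 they had 102 Lcn2 UMIs (1469 CPM), with 63.0% of barcodes positive (exact 95% interval 48.7 to 75.7), and on day 2 they had 36 UMIs (566 CPM), with 30.8% positive (18.7 to 45.1). Neutrophil barcodes were shallow, with medians of 1070.5 and 980.5 UMIs on these days.

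The sums of tubular barcodes were then tested across libraries. On the TMM scale, which adjusts library totals, Lcn2 stood at 3.47 CPM in the control, 912 and 969 on day 7, 44.6 and 26.8 on day 11, then 10.9 and 9.40 on day 14. These groups did not overlap. By the edgeR quasi-likelihood test, Benjamini-Hochberg adjusted over 16232 genes, Lcn2 exceeded the control by 8.08 on the log2 scale on day 7 (SE 0.43, adjusted p = 3.44e-06), where 33.4% of the genes tested were called. It was higher by 3.36 on day 11 (SE 0.36, adjusted p = 0.00174 by edgeR), where 17.6% were called, and by 1.55 on day 14 (SE 0.34, adjusted p = 0.0267 by edgeR), where 7.57% were called. All 3 comparisons share the single control library. The day 14 call was lost without day 14 replicate 1 (1.43, adjusted p = 0.106), without replicate 2 (1.65, adjusted p = 0.101), with the mitochondrial limit at 25% (1.21, adjusted p = 0.0680) and without barcodes that carried 2 markers of another class (0.48, adjusted p = 0.686), all by edgeR.

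Between the replicated days Lcn2 fell by 4.72 on the log2 scale from day 7 to day 11 (adjusted p = 4.22e-06, 43.1% of genes called). It fell by 6.53 from day 7 to day 14 (adjusted p = 6.70e-07, 45.5% called). From day 11 to day 14 it fell by 1.81 (SE 0.25, adjusted p = 0.00292, 12.5% called), all by the edgeR quasi-likelihood test. The makeup of the tubular sums changed alongside: the proximal gate took 64.9% of the used barcodes in the control, 16.8% and 16.5% on day 7, 68.2% and 76.2% on day 11, then 77.0% and 77.4% on day 14. Segments were therefore also tested alone.

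In the distal nephron sums Lcn2 was higher than in the control by 7.79 on day 7 (SE 0.35, adjusted p = 1.39e-09, 23.3% of 13232 genes called). On day 11 the change was 4.03 (SE 0.31, adjusted p = 1.87e-06, 11.9% called), and on day 14 it was 2.67 (SE 0.30, adjusted p = 0.000109, 3.12% called), by the edgeR quasi-likelihood test. The day 14 call was lost without barcodes that carried 2 markers of another class (1.56, adjusted p = 0.161 by edgeR). That setting also made the sums smaller, from 9404789 to 1726527 UMIs in the control. The day 14 sums went from 3907422 and 3238542 to 643085 and 530436 UMIs. Single segments were tested too, a choice made after seeing the data. In the thick ascending limb the change was 7.76 on day 7 (SE 0.40, adjusted p = 5.59e-13, 20.8% called) and 2.26 on day 14 (SE 0.40, adjusted p = 0.00207, 2.03% called) by edgeR. In principal cells it was 6.50 on day 7 (SE 0.41, adjusted p = 2.83e-09, 9.54% called) and 2.28 on day 14 (SE 0.37, adjusted p = 0.00237, 1.86% called) by edgeR. In intercalated cells it was 6.01 on day 7 (SE 0.60, adjusted p = 2.00e-10, 5.21% called) by edgeR, whereas day 14, with 0 and 1 UMI, was not called (-1.16, SE 1.45, adjusted p = 0.822, 2.61% called). In the distal convoluted tubule, whose control had 0 UMIs so that no fitted change is given, day 7 was called (adjusted p = 3.74e-18, 18.2% called) and day 14, with 1 UMI per library, was not (adjusted p = 0.450, 3.33% called), by edgeR.

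In the proximal sums Lcn2 was higher than in the control by 6.44 on day 7 (SE 0.38, adjusted p = 2.12e-06, 35.5% of 15431 genes called) and by 2.72 on day 11 (SE 0.38, adjusted p = 0.00143, 19.6% called), by the edgeR quasi-likelihood test. On day 14 the change was -0.32 (SE 0.44) and was not called (adjusted p = 0.692 by edgeR, 6.68% called). Without barcodes that carried 2 markers of another class the changes were 9.38 on day 7 (adjusted p = 3.54e-06), 4.28 on day 11 (adjusted p = 0.00691) and 2.34 on day 14 (adjusted p = 0.197), by edgeR, but the proximal control then held 1 Lcn2 UMI and these fitted changes rest on it. The control level in these sums rested on 1 barcode. It held 14 of the 20 proximal Lcn2 UMIs, at a depth of 20289 UMIs and 4946 genes, with 5 of 16 proximal markers and 7 of 9 general tubular markers detected, and the next highest barcode of the control held 7. It also had 2 of 6 thick ascending limb, 2 of 6 distal convoluted tubule and 2 of 5 monocyte markers, so it was itself a barcode with markers of other classes. It also carried 6 UMIs of Vcam1, 39 of Spp1 and 30 of Clu, and 0 of Havcr1. Without it the proximal control fell to 6 UMIs (0.337 CPM), and the changes became 8.15 on day 7, 4.42 on day 11 and 1.38 on day 14 (adjusted p = 0.161 by edgeR).

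Whether the rise on day 7 differed between the segments was tested by the difference of the changes. It was 1.47 larger on the log2 scale in the distal nephron (SE 0.59) and did not pass (adjusted p = 0.0909 by the edgeR quasi-likelihood test, 20% of the genes tested called). Without the control barcode just described it was -0.23 (adjusted p = 0.870), and without day 7 replicate 1 it was 1.82 and passed (adjusted p = 0.00116, by edgeR). Without barcodes that carried 2 markers of another class it was -2.30 (adjusted p = 0.121 by edgeR), again with 1 proximal control UMI. The proximal gate had 206 and 141 CPM on day 7, beside 399.8 and 77.9 in the endothelial gate. The part of free RNA in the proximal sums was not tested, so the difference does not compare synthesis in the segments. This limit holds for the proximal changes above as well.

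Lcn2 was also compared between barcodes with and without a UMI of Havcr1 (KIM-1) or Vcam1, which mark injured tubule cells. Proximal barcodes with a Havcr1 UMI had 288 CPM of Lcn2 on day 1 against 553 without one. The values were 45.5 against 144 on day 2, 127 against 149 on day 4, and 190.3 against 253 and 162 against 70.6 on day 7, so the level with Havcr1 was lower in 4 of 5 libraries. The share of positive barcodes went otherwise: it was 46.4% with Havcr1 against 51.4% without on day 1, 17.4% against 19.0% on day 2, 28.0% against 21.1% on day 4, and 30.5% against 27.9% and 31.1% against 10.8% on day 7, higher with Havcr1 in 3 of 5. Barcodes with Havcr1 were deeper, with medians of 1819.5 to 3960 UMIs against 1078 to 1643. Thinned to 1000 UMIs, the shares were 24.0% against 36.1% on day 1, 7.46% against 10.4% on day 2, 13.0% against 11.4% on day 4, and 17.5% against 19.6% and 13.4% against 5.93% on day 7, higher with Havcr1 in 2 of 5. The whole proximal gate lay below the endothelial gate on day 1 (346 against 352 CPM), day 4 (134 against 156) and day 7 replicate 1 (206 against 399.8). It lay above on day 2 (119.6 against 66.8) and day 7 replicate 2 (141 against 77.9). The part of free RNA in these proximal comparisons was not tested. In the distal nephron the values with and without Havcr1 were 2385 against 2583 on day 1, 1575 against 1235 on day 2 and 3143 against 2274 on day 4. On day 7 they were 1695 against 1962 and 1277 against 2359. The sign thus varied between libraries, and no test was run. For Vcam1 the proximal values with and without it were 196 against 379 on day 1, 33.0 against 139.8 on day 2 and 132 against 137 on day 4. On day 7 they were 206 against 206 and 164 against 78.4. Within the distal nephron the level with Vcam1 was higher in 4 of 5 libraries, at 2787 CPM against 2520.5 on day 1, 1724 against 1229 on day 2 and 3833 against 2295 on day 4. On day 7 it was 1816 against 1930.3 and 3363 against 2221. The share of positive barcodes went otherwise: thinned to 1000 UMIs it was 59.8% with Vcam1 against 70.4% without on day 1, 38.1% against 42.9% on day 2, 59.9% against 51.7% on day 4, and 51.8% against 60.2% and 44.8% against 51.8% on day 7. It was lower with Vcam1 in 4 of 5 libraries, thinned or not. These distal barcodes with Vcam1 numbered 12 to 116 per library, and no test was run. By the thinned share, distal barcodes with Havcr1 were likewise lower in 4 of 5 libraries, and proximal barcodes with Vcam1 in 3 of 5. Havcr1 is among the general tubular markers, but not among those of the proximal or distal gates.

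**Figure D4:**
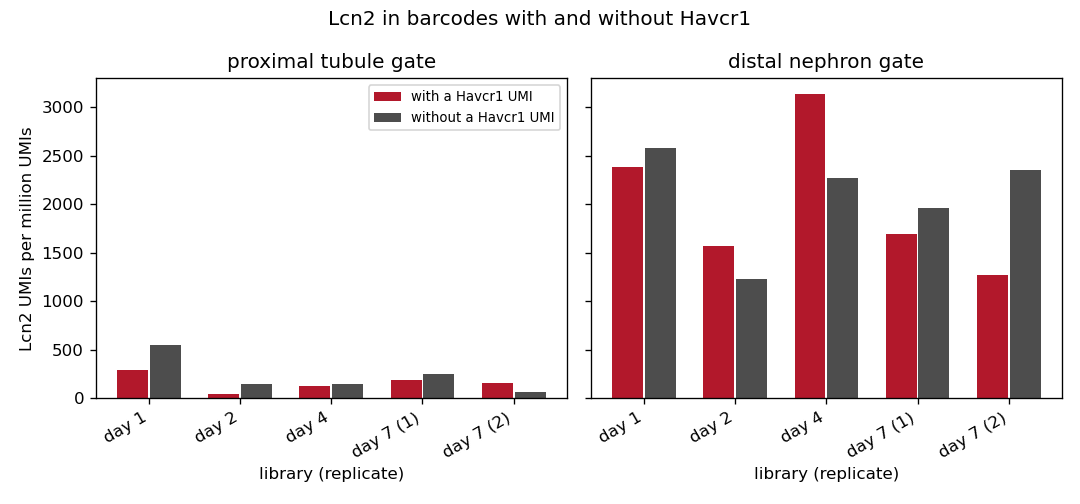
Bars give Lcn2 CPM in barcodes with and without a Havcr1 UMI, for the proximal tubule gate and the distal nephron gates in the 5 libraries of days 1 to 7, on 1 vertical axis from 0. The distal bars (1235 to 3143 CPM) stand above all proximal bars (45.5 to 553 CPM), with or without Havcr1.

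Genes tied to lipocalin 2 were read from fixed lists in the tubular sums of day 7 against the control, where 15.7% of the genes tested were called higher and 17.6% lower, with a median log2 change of 0.04 over all genes. Of the 24 genes for its inducers and their signalling, 22 were tested, 16 were higher and 1 lower, with a median change of 2.15. Cd14, the co-receptor for bacterial lipopolysaccharide, stood at 2.49 CPM in the control and at 159 and 244 on day 7 (log2 change 6.33). Tnf, the cytokine, stood at 0.267 and at 6.56 and 8.64 (4.80). Nfkbiz was at 31.0 CPM in the control and at 229 and 163 on day 7 (2.66), and Il17ra, an interleukin receptor chain, fell by 0.97. In the distal nephron alone, where 11.4% of genes were higher and 11.9% lower, 15 of 21 tested members were higher and 0 lower. The macrophage gate took 0.766% of the used barcodes in the control and 27.4% and 28.7% on day 7. The part of RNA from other cells in the tubular sums was not tested.

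Acute phase genes of epithelia were mostly higher. Of 17, 14 were tested, 11 were higher and 0 lower, with a median change of 4.99. Cxcl2, a neutrophil chemokine, was at 0.178 CPM in the control and at 50.5 and 40.5 on day 7 (log2 change 7.92). Saa3, a serum amyloid, had 0 UMIs in the control and 2.69 and 3.12 CPM on day 7. In the distal nephron 10 of 11 tested members were higher and 0 lower. Of the 15 genes listed as tubular injury markers, all 15 were tested, 14 were higher and 0 lower, with a median of 5.82. Sprr2f and Krt20, an envelope protein gene and a keratin gene, had 0 CPM in the control and 161 and 105.1 (Sprr2f) and 25.4 and 52.3 (Krt20) on day 7. Vcam1 changed by 8.82 and Havcr1 by 8.35. This list names genes known to rise in injury, so its direction is not independent evidence.

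The uptake receptors went the other way. Of 4, 3 were tested, 2 were lower and 0 higher, with a median change of -2.21. Lrp2 (megalin) stood at 1369.8 CPM in the control tubular sum and at 152 and 113 on day 7 (log2 change -3.37), and Cubn (cubilin), its partner, at 48.8 and at 10.3 and 10.7 (-2.21). Within the proximal sums, where the share of proximal barcodes no longer enters, the changes were -2.57 and -1.46, both called. Slc22a17, a proposed lipocalin 2 receptor, stood at 9.61 CPM in the control and at 7.57 and 10.4 on day 7, and was not called. Lrp2 and Cubn are themselves markers of the proximal gate, so their levels there also depend on the gate.

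Of 15 iron handling genes, 14 were tested, 2 were higher and 7 lower, with a median change of -0.69. The count of higher members is near the share of higher calls over all genes (15.7%), and that of lower members is above the 17.6% called lower over all genes. Cp (ceruloplasmin, a ferroxidase) went from 12.1 CPM in the control to 403 and 377 on day 7 (5.01), and Slc40a1 (ferroportin, the iron exporter) from 26.4 to 43.9 and 46.3 (0.77). Tfrc, the transferrin receptor, went from 209 CPM to 27.8 and 17.5 (-3.23), and Slc39a14, a metal importer, from 34.4 to 9.09 and 13.5 (-1.57). Of the 14 members tested in the distal nephron, 3 were higher and 2 lower, beside shares of 11.4% and 11.9% over all genes there, and nothing is read from counts this small.

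Among 12 neutrophil granule and oxidase genes, 4 passed the filter on low counts in the tubular sums and 1 was called, Cybb (the phagocyte oxidase subunit), at 3.56 CPM in the control and at 25.2 and 12.7 on day 7 (2.38). Leaving out tubular barcodes with any neutrophil marker UMI gave 8.07 for Lcn2 on day 7 against 8.08 with them. The neutrophil gate held only 8 and 4 barcodes on day 7, so little could change there. It held 54 and 52 on days 1 and 2, for which no change against the control was fitted. Among 12 relatives of lipocalin 2 in the lipocalin and fatty acid binding protein families, 7 were tested, 2 were higher and 3 lower. Ptgds changed by 2.73 and Fabp4 by 1.57, while Apom fell by 3.36 and C8g by 1.97. Ptgds was called lower in the distal nephron (-1.11) and higher in the proximal sums (6.11). None of the 7 tested relatives had a change as large as that of Lcn2 in the tubular sums.

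The genes whose tubular levels ran most like those of Lcn2 were ranked by Pearson's r of log2(CPM + 1) over the 10 libraries, among 6243 genes with a mean of at least 20 CPM. The first was Slc25a24, a mitochondrial carrier (r = 0.986), followed by Anxa3 (0.985), Serpinb6a (0.983), Sh3bgrl3 (0.982), Spp1 (0.982), Tpm4 (0.981), D17H6S56E-5 (0.980), Hn1 (0.979), Nfkbiz (0.978) and Tnfrsf1a (0.977). Anxa3, an annexin, had 2.14 CPM in the control, 97.8, 67.1 and 166 on days 1, 2 and 4, 120.4 and 125 on day 7, 15.8 and 8.36 on day 11, then 3.004 and 3.18 on day 14. Spp1, which encodes osteopontin, had 751 CPM in the control, 15597 on day 1 and 811 and 859 on day 14. In the distal nephron sums the ranking, over 6261 genes, opened with Anxa2 (0.981), S100a6 (0.980) and Anxa3 (0.979), the last being in both lists of 10. These values describe the 10 libraries, which fall into 7 groups, and the points share library, depth and the makeup of the sums.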

How the data were processed

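Gene, gate and gene list choices were made with earlier results of these data known. Per the labels' protocols, suspensions went through Drop-seq, microbead cDNA was amplified by PCR and its 3' ends were sequenced. The authors deposited 1 table of counts per library (gene symbols by barcodes), read here as UMI counts because the values are whole numbers. Bowtie2 2.2.7 and the mm10 build are named in the submitters' processing notes. Annotation and strand use are not given in the sources used here.

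Used barcodes were gated by 132 of 135 markers found, into the class with most markers (at least 2, more than any other class). No doublet caller was run, and leaving out barcodes with 2 markers of another class is the alternative. This alternative kept 3178 of the 5366 tubular barcodes of the control, and 4468 of 6388 and 3703 of 5741 on day 14. Counts were summed per library and gate (at least 20 barcodes) and compared with edgeR 4.0.16 (R 4.3.3): TMM scaling, filterByExpr, 1 term per group, quasi-likelihood F test and Benjamini-Hochberg adjustment at 0.05. The 3 residual degrees of freedom come from days 7, 11 and 14, and the single control was taken to vary as they do. P-values measure the spread between libraries, which may be technical. SE is the log2 change divided by the square root of F. The difference between segments used 1 model with library as a block. Scripts were tested on simulated data.

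Intervals are exact (Poisson for CPM, Clopper-Pearson for shares, 95%), and a count of 0 allows up to 3 counts. DESeq2 1.42.0 was an alternative. Replicates of a day differed beyond counting noise. Replicate numbers did not pair libraries across days (correlations of deviations 0.05, -0.02 and -0.03). Named genes were the 2 called members per list and direction with the largest change, and the 10 genes most like Lcn2. Nfkbiz, Slc22a17, Vcam1 and Havcr1 in the lists were named beside the rule. Promoter sequence is from RefSeq (GRCm38.p6).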

Additional observations from a re-analysis of the deposited data

How the results depend on the processing

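Of 251 recomputed values, 192 under planned settings and 42 under added ones kept their direction and side of the threshold. By edgeR, the tubular change on day 14 was 0.48 without barcodes holding 2 markers of another class and 1.21 with the mitochondrial limit at 25%, and ranged from 1.43 to 1.65 with 1 library left out. The first of these settings also gave 1.56 for the distal nephron and 2.34 for the proximal sums on day 14, and -2.30 for the day 7 difference between segments. Leaving out 1 control barcode gave 1.38 and -0.23 for the latter pair, and leaving out Npnt as a marker gave 0.67 for the proximal sums. Both of these were chosen after seeing the data. The day 7 difference ranged from 1.04 to 1.82 with 1 library left out. Against the endothelial gate, the exclusive setting gave 2.22 for the distal convoluted tubule, 2.61 for the segment-free gate (higher in 6 of 6 in both settings), -0.51 for intercalated cells and -1.18 for macrophages. With at least 3 markers the mean positive share on day 7 was 73.8% in the thick ascending limb and 72.9% in principal cells. With the replicate number as a block, the changes were -4.79, -6.62 and -1.83 between days 7 and 11, 7 and 14, and 11 and 14, and no call changed. The cause was not tested in any of these.

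Counts of called genes moved by over 1.5 times. Over all settings, leave-one-out included, the tubular count ran from 730 to 4266 on day 11 (2849 as reported), from 154 to 3499 on day 14 (1228), from 392 to 3148 between days 11 and 14 (2030), and down to 4314 between days 7 and 11 (6992). The distal count went down to 1696 on day 7 (3078), from 373 to 2805 on day 11 (1579) and from 37 to 1358 on day 14 (413). The proximal count went down to 995 on day 11 (3032) and from 352 to 1985 on day 14 (1031). The count for the difference between segments went down to 1817 (2943), and within day 7 to 3551 (5542). The control and day 14 values rest on few Lcn2 UMIs, 78 in the control tubular sum and 174 and 133 on day 14.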

Other observations

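The 8 markers of the principal cell gate were compared between its barcodes with and without an Lcn2 UMI. By CPM, Aqp2, Fxyd4 and Npnt were higher with Lcn2 in 10 of 10 libraries, Aqp3 and Avpr2 in 9, Hsd11b2 in 6, Scnn1g in 4 and Scnn1b in 3. Scnn1b and Scnn1g, subunits of the epithelial sodium channel, were thus lower with Lcn2 in 7 and 6 libraries. Scnn1b stood at 274 CPM with Lcn2 and 384 without it in the control, and at 263 against 306 and 354 against 420.0 on day 7.

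Aqp2, the water channel of these cells, stood at 4225 CPM with Lcn2 and 3332 without it in the control, at 4327 and 1341 on day 1, at 4109 and 2178 on day 2, and at 5231 and 1965 on day 4. On day 7 it stood at 1545 and 985 in replicate 1 and at 2811 and 1212 in replicate 2. On day 11 it stood at 10992 and 6658 in replicate 1 and at 12769.5 and 8695 in replicate 2. On day 14 it stood at 13901 and 3454 in replicate 1 and at 8848 and 3721 in replicate 2, where 34 and 40 barcodes held Lcn2. Barcodes with Lcn2 were also the deeper ones in all 10 libraries, with medians of 1731 to 4424 UMIs against 1055 to 3245, and the part of depth in the Aqp2 values was not tested.

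Hsd11b2, the enzyme that guards the mineralocorticoid receptor, was higher with Lcn2 in 6 of 10 libraries. Its level in the control was 6559 CPM with Lcn2 against 6791 without it. On days 1, 2 and 4 the pairs were 5914 against 4005, 5079 against 5497 and 6898 against 5774. On day 7 it had 6780 and 5915 in replicate 1 and 5279.7 and 5112 in replicate 2. On day 11 it had 9332 against 9922 in replicate 1 and 8468 against 8743 in replicate 2. The day 14 libraries had 10883 against 8423 and 12121 against 9973. Both genes are among the gate's markers, and no test was run.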
